A study of Mus musculus with 5 samples.

Results

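The genes described here are the mouse cyclins, cyclin-dependent kinases (CDKs), CDK inhibitors, E2F factors and retinoblastoma-family (pocket) proteins, and the measurement is where macroH2A1.2-GFP was found in the chromatin around them before and after adipocyte differentiation. They were taken by symbol from the GENCODE M21 annotation (mm10): Cdk or E2f followed by digits, Cdkn1 or Cdkn2 followed by a single letter, Ccna, Ccnb, Ccnd or Ccne followed by digits, and Rb1, Rbl1 and Rbl2. The rule found 44 of the 20807 autosomal protein-coding genes, and 2 matching genes on chromosome X (Cdk16 and Ccnb3) were left out. Each gene was read over a window made of its body and 10 kb on each side.

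MacroH2A1.2 is a splice form of the histone H2A variant macroH2A1, which replaces ordinary H2A in part of the nucleosomes and is mostly found in broad stretches of chromatin. Cyclins activate CDKs, and D-type and E-type cyclins with their kinases phosphorylate the pocket proteins, which then release E2F factors to switch on genes for DNA replication. INK4 and CIP/KIP inhibitors restrain the kinases. In 3T3-L1 cells, confluent pre-adipocytes re-enter the cell cycle for a short time after the hormone cocktail and then leave it as they become fat cells.

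All samples came from 3T3-L1, a fibroblast line of the mouse that turns into adipocytes under hormones. The ChIP samples were made from cells with a lentivirus that stably expressed macroH2A1.2 fused to GFP, immunoprecipitated with an anti-GFP antibody after micrococcal nuclease digestion: 2 replicates before differentiation (pre-adipocytes) and 2 after it (mature adipocytes). All regions were called against 1 library made without antibody, which has no table of its own here, so both conditions share that control. Differentiation was started after confluence with IBMX, dexamethasone and insulin, and the labels give no day of harvest. Because the tag was carried by an added transgene, the profiles are those of the tagged protein at its expressed level, and no ChIP of cells with GFP alone was analysed here. Conditions and the control follow the sample titles. For the control, GEO's description field names an anti-GFP library, while its title and the paper say that no antibody was used. For both mature samples GEO's description field instead says pre-differentiation, and the methods paragraph on ChIP names mouse adipose tissue where the labels name the cell line. The files hold ChIP regions and no expression values, so the labelled cell states could not be checked against marker genes. The study calls the replicates biological duplicates, but the labels do not say that they came from separate cultures, and p-values measure the spread between these samples only.

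An enriched region is a stretch that the authors' caller, SICER, joined from 200 bp windows with more ChIP than control reads, and fold enrichment divides its ChIP reads by its control reads after scaling for library size. Every region deposited had a false discovery rate (FDR) under 0.001. The samples held 36468 to 61196 regions, more in both mature samples than in both pre-adipocyte samples. Replicate 2 of pre-adipocytes was the least deeply sequenced, at 0.549 times the size of the control library against 1.2 to 1.23 times in the other samples, and it had a median of 57 ChIP reads per region against 121 to 186. Values per sample are given in the order replicates 1 and 2 of pre-adipocytes, then replicates 1 and 2 of mature adipocytes.

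A region lay over the start of 4 of the 44 genes in at least 1 sample, against 11.7% of all genes. To let the sequence at these sites be seen, the 250 bases upstream of the RefSeq start (GRCm38.p6, the mm10 sequence) are printed below, 5′ to 3′, for 3 genes with a start inside a region in at least 1 sample (Cdk15, E2f6 and Cdkn1a) and for Ccnd3, whose regions lay between its starts. A start of Cdk19 was covered as well, but the promoter table has no entry for that gene. Capitals mark CpG dinucleotides. Cdk15 and E2f6 have a single RefSeq start each, while Cdkn1a and Ccnd3 have an outer and an inner start.
Cdk15, chr1:59256656-59256905, plus strand: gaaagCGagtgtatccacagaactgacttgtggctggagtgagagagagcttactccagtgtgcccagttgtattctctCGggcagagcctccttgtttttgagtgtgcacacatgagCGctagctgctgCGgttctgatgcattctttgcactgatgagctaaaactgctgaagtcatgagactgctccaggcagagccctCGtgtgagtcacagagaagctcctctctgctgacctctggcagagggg
E2f6, chr12:16810715-16810964, plus strand: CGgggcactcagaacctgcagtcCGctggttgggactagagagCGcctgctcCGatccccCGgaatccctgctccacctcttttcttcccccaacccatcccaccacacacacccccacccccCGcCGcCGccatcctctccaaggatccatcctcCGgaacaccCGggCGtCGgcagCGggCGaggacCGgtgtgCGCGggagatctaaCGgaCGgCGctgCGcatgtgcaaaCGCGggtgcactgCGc
Cdkn1a, outer start, chr17:29090729-29090978, plus strand: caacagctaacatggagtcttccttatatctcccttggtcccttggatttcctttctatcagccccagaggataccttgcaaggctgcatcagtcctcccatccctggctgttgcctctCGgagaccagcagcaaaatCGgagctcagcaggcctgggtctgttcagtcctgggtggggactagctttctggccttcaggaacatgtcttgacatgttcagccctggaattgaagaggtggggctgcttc
Cdkn1a, inner start, chr17:29093519-29093768, plus strand: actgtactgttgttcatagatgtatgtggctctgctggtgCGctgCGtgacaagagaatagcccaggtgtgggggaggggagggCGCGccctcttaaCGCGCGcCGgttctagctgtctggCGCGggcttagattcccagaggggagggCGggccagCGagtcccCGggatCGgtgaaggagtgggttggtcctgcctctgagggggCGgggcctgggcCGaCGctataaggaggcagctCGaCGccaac
Ccnd3, outer start, chr17:47504801-47505050, plus strand: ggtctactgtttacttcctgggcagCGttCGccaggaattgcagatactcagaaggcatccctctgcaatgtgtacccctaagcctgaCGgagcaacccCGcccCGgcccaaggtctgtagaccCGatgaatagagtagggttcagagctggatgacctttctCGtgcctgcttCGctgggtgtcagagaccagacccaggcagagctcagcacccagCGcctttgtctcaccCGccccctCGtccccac
Ccnd3, inner start, chr17:47593217-47593466, plus strand: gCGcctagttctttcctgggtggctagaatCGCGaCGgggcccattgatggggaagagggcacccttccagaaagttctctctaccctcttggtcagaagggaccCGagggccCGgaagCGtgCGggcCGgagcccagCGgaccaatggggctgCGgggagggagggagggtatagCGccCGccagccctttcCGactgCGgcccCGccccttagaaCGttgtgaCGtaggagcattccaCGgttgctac

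These sequences held 5 CpGs at Cdk15, 24 at E2f6, 2 and 19 at the outer and inner starts of Cdkn1a, and 11 and 19 at those of Ccnd3. The outer Cdkn1a sequence also held CATG, 6 further bases and CATG again, the core letters of 2 adjoining p53 half-sites, 35 to 48 bases before the start. This motif reads the same on both strands. It was looked for after the sequence had been seen, and it was in 1 of 39 promoters of the 44 genes and in 0.688% of all 31396 autosomal RefSeq promoters.

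Taking the genes as a whole, regions were found near about as many of them as near other genes. A region overlapped the window of 18, 11, 16 and 20 of the 44 genes in the 4 samples. The same held for 35% and 30.3% of all genes in replicates 1 and 2 of pre-adipocytes and for 41.4% and 41.6% in replicates 1 and 2 of mature adipocytes, where the 44 genes had 40.9%, 25%, 36.4% and 45.5%. The mean was 3.5 genes higher in mature adipocytes, and the conditions overlapped (exact permutation test, two-sided, p = 0.667, with 0.333 the smallest p that 2 samples against 2 allow). With regions of at least 2-fold enrichment the counts were 3, 5, 10 and 13, and with regions shared by both replicates of a condition 8, 8, 16 and 16. In both cases, and with the gene body alone (6, 5, 7 and 9) or 50 kb on each side (31, 26, 34 and 33), the conditions did not overlap (exact permutation test, two-sided, p = 0.333 in each). For the body, all genes showed the same order, at 18%, 15.5%, 22.8% and 22.7%. Shares of all genes were not computed for the other settings. Both mature samples also held more regions in total, 59375 and 61196 against 36468 and 38546. The gene counts under those settings therefore show nothing particular to the 44 genes. Keeping only shared regions makes both counts of a condition alike by design. Their likeness and the p-value of that setting therefore say nothing on the spread between replicates. Without the shallow replicate 2 of pre-adipocytes the difference of 3.5 genes fell to 0.

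**Figure D1:**
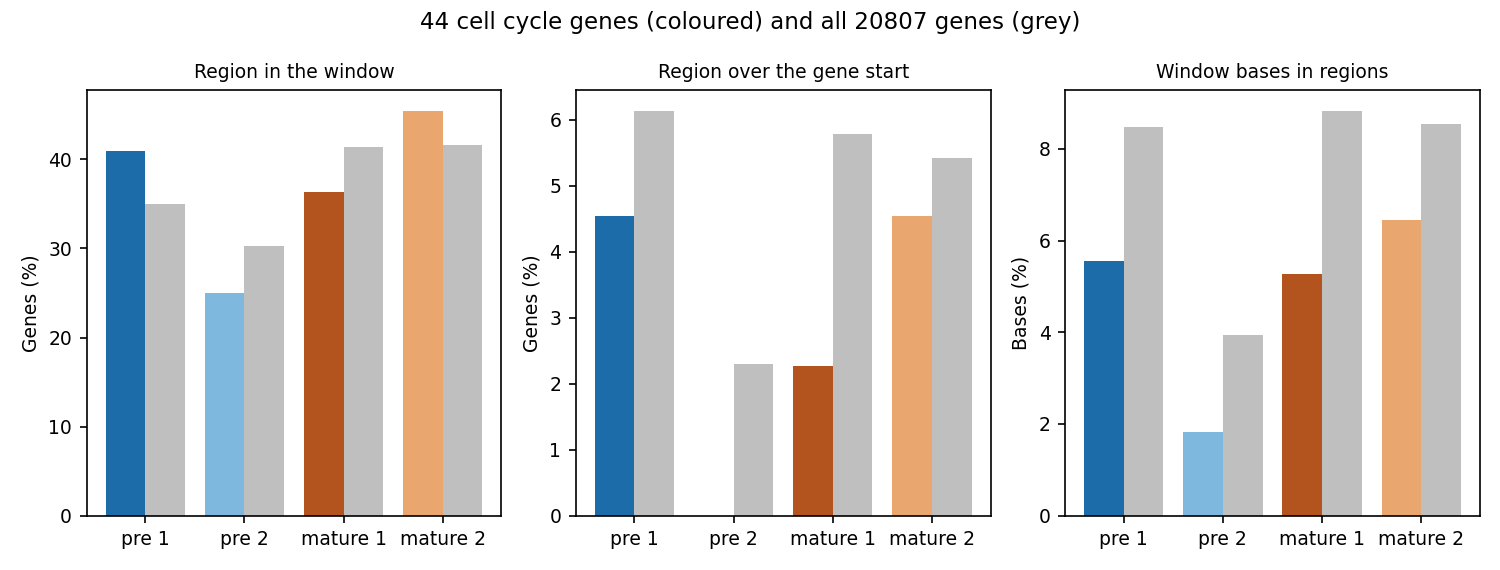
Share of genes with a region in the window, share of genes with a region over the gene start, and share of window bases in regions, in percent, for the 44 genes (coloured bars) and all 20807 autosomal protein-coding genes (grey bars) in each sample. The coloured bar lies above the grey one in replicate 1 of pre-adipocytes and replicate 2 of mature adipocytes in the first panel, and below it in every sample in the other panels.

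The regions covered a smaller part of these windows than of gene windows in general. They took 5.55%, 1.83%, 5.26% and 6.45% of the bases of the 44 windows, against 8.48%, 3.94%, 8.83% and 8.54% of the windows of all genes. The median window was 36.5 kb for the 44 genes and 37.6 kb for all genes, but these shares count bases, so long windows weigh more. Cdk14 alone had 637 kb of the 3.12 Mb of merged windows of the 44 genes, and 2.04%, 0.471%, 1.35% and 1.48% of its window was covered. Shares without Cdk14 were not computed. The 44 genes' shares were lower in 4 of 4 samples. Between conditions the mean share differed by 2.16 percentage points, higher in mature adipocytes, with overlapping samples (exact permutation test, two-sided, p = 0.667). Without replicate 2 of pre-adipocytes the difference was 0.299 percentage points.

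Regions at these genes had fold enrichments close to those elsewhere. Their median fold enrichment was 1.66, 1.95, 1.72 and 1.79, compared with 1.62, 2.02, 1.80 and 1.82 over the regions in all gene windows. The highest median came from the shallowest sample both here and over all windows. Mature adipocytes were lower by a mean of 0.0542, which was within the spread of the replicates (exact permutation test, two-sided, p = 1), and higher by 0.0907 without replicate 2 of pre-adipocytes.

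Gene by gene, the 44 windows fell into a few patterns over the samples. A region was present in all 4 samples for 9 genes (Cdk13, Cdk14, Cdk15, Cdk19, Cdk20, Cdkn1a, Ccnd3, E2f1 and E2f6), a pattern shown by 21.1% of all genes. In both mature samples and neither pre-adipocyte sample there were 3 genes (Cdk1, Cdk17 and Cdkn1c), against 4.86% of all genes. No gene had the opposite pattern, which 0.913% of all genes showed. In both mature samples and replicate 1 of pre-adipocytes alone there were 3 genes (E2f3, Rb1 and Rbl1; 6.03% of all genes), and for these the missing sample was the shallow one. Replicate 1 of pre-adipocytes was the only sample with a region for Cdk4, Cdk6, Cdkn1b and E2f4 (2.13% of all genes), and replicate 2 of mature adipocytes was the only one for Cdkn2c and E2f2 (3.99%). Ccna1 lacked a region in replicate 1 of pre-adipocytes, Cdk9 in replicate 1 of mature adipocytes, and E2f7 in replicate 2 of pre-adipocytes and replicate 1 of mature adipocytes.

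No region was found in any sample for 20 genes, a pattern shown by 46.3% of all genes. They were Ccna2, Ccnb1, Ccnb2, Ccnd1, Ccnd2, Ccne1, Ccne2, Cdk2, Cdk5, Cdk7, Cdk8, Cdk10, Cdk12, Cdk18, Cdkn2a, Cdkn2b, Cdkn2d, E2f5, E2f8 and Rbl2. The nearest region to any of these gene bodies lay 10.3 kb from Cdk18, in replicate 2 of mature adipocytes, just outside the window. The median distance over the 20 genes was 50 kb and 63.8 kb in replicates 1 and 2 of pre-adipocytes, and 43.5 kb and 48 kb in those of mature adipocytes.

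The same measure in lengths gave a similar picture. The covered length of the window was larger in both mature samples than in both pre-adipocyte samples for 7 of the 44 genes (Ccna1, Cdk1, Cdk13, Cdk15, Cdk17, Cdkn1c and Rb1), against 14.6% of all genes. The opposite order held for 0 of the 44 genes and for 3.51% of all genes. The plot of covered share by gene shows both the genes that stayed apart and the many whose replicates spread as widely as the conditions.

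**Figure D2:**
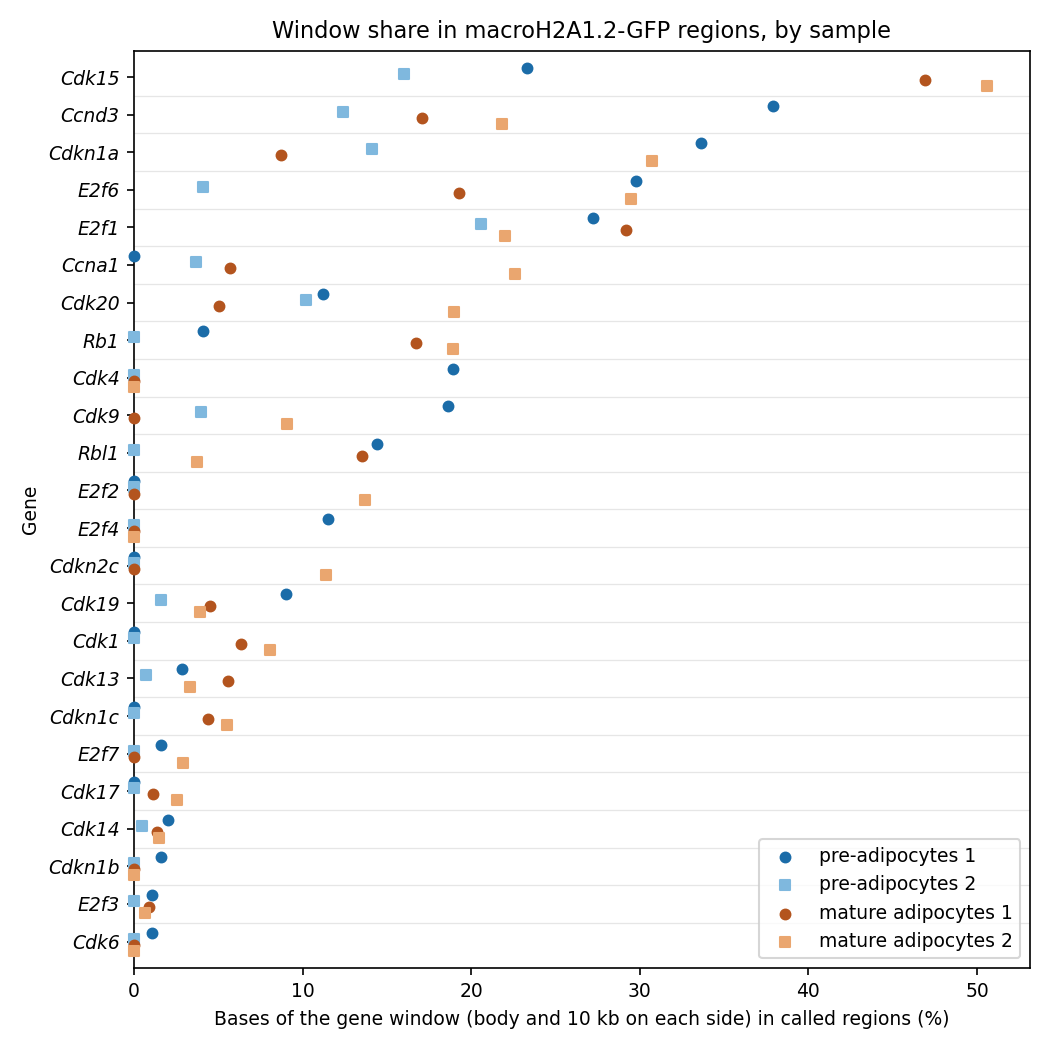
Percent of the window (gene body and 10 kb on each side) in regions for each of the 24 genes with a region in at least 1 sample, with 1 point per sample. Cdk15 reaches 46.9% and 50.6% in mature adipocytes against 23.3% and 16% in pre-adipocytes, while the points of Ccnd3, Cdkn1a and E2f6 mix the conditions.

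Among the cyclins, which give the kinases their timing, regions were found in any sample at 2 of 9 genes, where 53.7% of all genes had one. The windows of both B-type cyclins, which drive mitosis, of both E-type cyclins, which act at the start of S phase, and of Ccna2 were free of regions. Ccna1, a cyclin mainly known from the male germ line, had 0, 1, 1 and 2 regions, of which only the region of 5800 bp in replicate 2 of mature adipocytes reached the gene body. The other regions of Ccna1 lay upstream.

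Ccnd1 (chr7:144929931-144939925), the D-type cyclin induced by growth factors, had no region in its window in any sample. The nearest region to its body was 32.5 kb and 212 kb away in replicates 1 and 2 of pre-adipocytes, and 34.3 kb and 49.3 kb away in replicates 1 and 2 of mature adipocytes. Ccnd2 was free of regions as well, with distances of 45.4 to 71.0 kb.

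Ccnd3 (chr17:47505051-47599691), a D-type cyclin also known for a role in fat cell differentiation, stood apart from the other cyclins. Its window held 8, 4, 8 and 10 regions that covered 43.4, 14.2, 19.6 and 25.0 kb of 115 kb. All of them lay inside the gene, between 47515801 and 47589400, so that the sequences upstream of the outer and the inner start printed above were outside the regions in every sample. Replicate 1 of pre-adipocytes had the longest covered length and replicate 2 the shortest, with both mature samples between them (exact permutation test, two-sided, p = 1). Fold enrichment over the joined regions was 1.86, 2.18, 1.85 and 2.04.

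Regions were found in any sample at 3 of the 4 cell cycle CDKs, where 53.7% of all genes had one. None of these genes had a region in its body, where 31.1% of all genes had one. Cdk1, the mitotic kinase, had 0, 0, 1 and 2 regions, all downstream of the gene. A region starting at 69329401 was found in both mature samples, with 100 ChIP reads at a fold enrichment of 2.47 in replicate 1 and 86 reads at 1.98 in replicate 2. In replicates 1 and 2 of pre-adipocytes the nearest regions lay 12.3 kb and 14.1 kb from the gene, outside the window by a short way, against 3.35 kb and 3.15 kb in mature adipocytes.

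Cdk2, the partner of cyclins E and A, had no region. Cdk4 and Cdk6 are the partners of the D-type cyclins. Cdk4 (chr10:127063534-127067920) had 1 region, in replicate 1 of pre-adipocytes, with 139 ChIP reads and a fold enrichment of 1.68. It began 4.28 kb downstream of Cdk4 and overlapped the neighbouring gene Agap2, and the nearest regions of the other samples were 55.5, 13.1 and 53.5 kb from Cdk4. Cdk6 had 1 region, also in replicate 1 of pre-adipocytes and downstream.

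The CDKs that act on transcription were split. Cdk7, the kinase of TFIIH, Cdk8, a kinase of the Mediator complex, and Cdk12, which phosphorylates RNA polymerase II, had no region, while Cdk9, Cdk13 and Cdk19 did. Cdk19, the paralog of Cdk8, had 2, 1, 3 and 3 regions covering 14.8, 2.64, 7.44 and 6.40 kb of 164 kb. They stood around the 5′ end of the gene. Its outermost annotated start lay inside a region in replicate 1 of pre-adipocytes and replicate 2 of mature adipocytes, but that start does not belong to a transcript of the GENCODE basic set, and no start of a basic transcript of Cdk19 was covered.

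Cdk13, a partner of cyclin K, had 1, 1, 3 and 1 regions covering 3.30, 0.800, 6.40 and 3.8 kb of 115 kb. Replicate 1 of pre-adipocytes and both mature samples shared a region upstream of the gene, between 17811001 and 17815400, with fold enrichments of 1.76, 2.09 and 2.06. The region of the shallow replicate 2 of pre-adipocytes was another one, in an intron, with 25 ChIP reads over 800 bp. Cdk9, the kinase of P-TEFb, had 1, 1, 0 and 2 regions, all upstream and all over the neighbouring gene Sh2d3c.

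Of the remaining CDKs, Cdk15 (chr1:59256906-59352993), a kinase of the PFTAIRE group, had 6, 7, 14 and 16 regions in its window, and it had the highest share of its window covered among the 44 genes in both mature samples, though not in the pre-adipocyte samples. They covered 27.0, 18.6, 54.5 and 58.7 kb of 116 kb, so that both mature samples lay above both pre-adipocyte samples by a mean of 33.8 kb (exact permutation test, two-sided, p = 0.333, the smallest possible). This order held for 14.6% of all genes. At Cdk15 it was lost among regions of at least 2-fold enrichment, which covered 0, 10.8, 4.4 and 9.4 kb (exact permutation test, two-sided, p = 1). The regions were spread along the body, and both mature samples also had a region upstream of the gene that neither pre-adipocyte sample had. The fold enrichment over the joined regions was 1.52, 1.96, 1.62 and 1.70. The start of Cdk15, whose sequence is printed above, was inside a region of 10400 bp in replicate 1 of mature adipocytes, with 355 ChIP reads and a fold enrichment of 1.61. In replicate 2 of mature adipocytes the nearest region in the gene began 1095 bp after the start, and in replicates 1 and 2 of pre-adipocytes 4895 bp and 495 bp after it.

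Cdk14, the paralog of Cdk15, had 3, 1, 3 and 3 regions, which covered 13, 3.00, 8.60 and 9.40 kb of a window of 637 kb, the longest of all 44. Less than the share at Cdk15 was therefore covered in every sample, 2.04%, 0.471%, 1.35% and 1.48%. Cdk20, a kinase linked to primary cilia, had 1 region in each sample, upstream of the gene, with fold enrichments of 1.82, 2.88, 1.40 and 2.53. Cdk17, of the PCTAIRE group, had 0, 0, 1 and 2 regions. The region starting at 93158801 in both mature samples lay upstream of the gene and held 62 and 67 ChIP reads at fold enrichments of 1.80 and 1.63. Cdk5, a kinase of neurons, and Cdk10 and Cdk18 had none.

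Among the inhibitors, 3 of 3 CIP/KIP genes and 1 of 4 INK4 genes had a region in at least 1 sample, where 53.7% of all genes had one. The difference between these small groups was not tested. Cdkn1a (chr17:29090976-29100727), which encodes p21, an effector of p53, had 1, 1, 1 and 3 regions covering 10.0, 4.20, 2.60 and 9.13 kb of 29.8 kb. Every sample had a region upstream of the outer start, starting between 29083401 and 29085601. These held 404, 99, 110 and 208 ChIP reads at fold enrichments of 1.93, 2.73, 1.91 and 1.94.

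The samples differed in how far the Cdkn1a regions reached. In replicate 1 of pre-adipocytes the upstream region was 10000 bp long and ran over the outer start, whose upstream sequence has 2 CpGs. In replicate 2 of mature adipocytes a separate region of 1800 bp, with 80 ChIP reads at a fold enrichment of 1.51, lay over the inner start, whose upstream sequence has 19. In the other samples neither start was inside a region, so neither condition had a start covered in both of its replicates.

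Cdkn1b (chr6:134920401-134925513), which encodes p27, had a region in replicate 1 of pre-adipocytes only. It held 116 ChIP reads at a fold enrichment of 1.38, and 0.4 kb of it reached into the window from upstream. In the other samples the nearest regions were 38.3, 40.3 and 41.7 kb from the gene. Cdkn1c (chr7:143458339-143461050), an imprinted gene that encodes p57, had a region in both mature samples, 8.75 kb upstream of the gene, with 48 ChIP reads at a fold enrichment of 3.26 in replicate 1 and 94 reads at 1.77 in replicate 2. In pre-adipocytes the nearest regions were 150 kb and 83.7 kb away. Cdkn2a and Cdkn2b, neighbours on chromosome 4 that encode p16, p19Arf and p15, had no region, like Cdkn2d. Cdkn2c, which encodes p18, had 1 region upstream in replicate 2 of mature adipocytes, with 97 ChIP reads and a fold enrichment of 1.49.

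Of the pocket protein genes, Rb1 had regions inside its body in mature adipocytes only. Rb1 (chr14:73183673-73325822), the retinoblastoma gene itself, had 1, 0, 8 and 7 regions in its window, covering 6.60, 0, 27.0 and 30.6 kb of 162 kb. The mature samples were higher by a mean of 25.5 kb (exact permutation test, two-sided, p = 0.333, the smallest possible). Rb1 was taken up with these values known, so this p-value was set by the choice of gene. Both mature samples lay above both pre-adipocyte samples in covered length for 14.6% of all genes. The mean difference was 15.3 kb among regions with an FDR of at most 1e-05, and 5 kb among those of at least 2-fold enrichment, which covered 0, 0, 8 and 2 kb. The region of replicate 1 of pre-adipocytes ended 378 bp upstream of the gene, and both mature samples had regions in the same stretch. In the body there were 0, 0, 6 and 6 regions. Of the 44 genes, 1 had body regions in both mature samples and neither pre-adipocyte sample, which held for 3.17% of all genes. The mature regions in the body were at 1.34 to 3.14 fold, and the start of Rb1 was not covered in any sample. In replicate 2 of mature adipocytes, 1 of them also overlapped Lpar6, a gene nested in Rb1, and another overlapped Rcbtb2.

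Rbl1, which encodes p107, had 2, 0, 3 and 2 regions, none of them in its body, and most of them overlapped the neighbouring genes Samhd1 or Mroh8. Rbl2, which encodes p130, the pocket protein of resting cells, had none. The nearest regions to Rbl2 were 57.6, 60.6, 19.8 and 16.4 kb away.

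Of the E2F genes, 6 of 8 had a region in at least 1 sample (53.7% of all genes), and 1 of 8, E2f6, had a region in its body (31.1% of all genes). E2f1 (chr2:154559407-154569892), an activator of S-phase genes, had 2 regions in each sample, all upstream, which covered 8.29, 6.29, 8.89 and 6.69 kb of 30.5 kb. The nearer of them ended 908 bp before the annotated start in both pre-adipocyte samples and 308 bp before it in both mature samples. These edges fall on a 200 bp grid. The fold enrichment of both regions together was 1.88, 2.04, 1.94 and 1.99, within a narrow range over the samples.

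E2f6 (chr12:16810963-16839742), a repressor that acts without pocket proteins, had 1, 1, 2 and 4 regions covering 14.5, 2.00, 9.40 and 14.4 kb of 48.8 kb. In pre-adipocytes they lay at the 3′ end of the gene, starting at 16835201 in both replicates. In mature adipocytes they were at various places of the gene and downstream of it, and in replicate 2 a region of 7800 bp covered the start printed above, with 254 ChIP reads and a fold enrichment of 1.24, the lowest of the sample at these genes. The start was outside the regions in the other samples.

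The plot of region positions shows these patterns for the genes with most to compare.

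**Figure D3:**
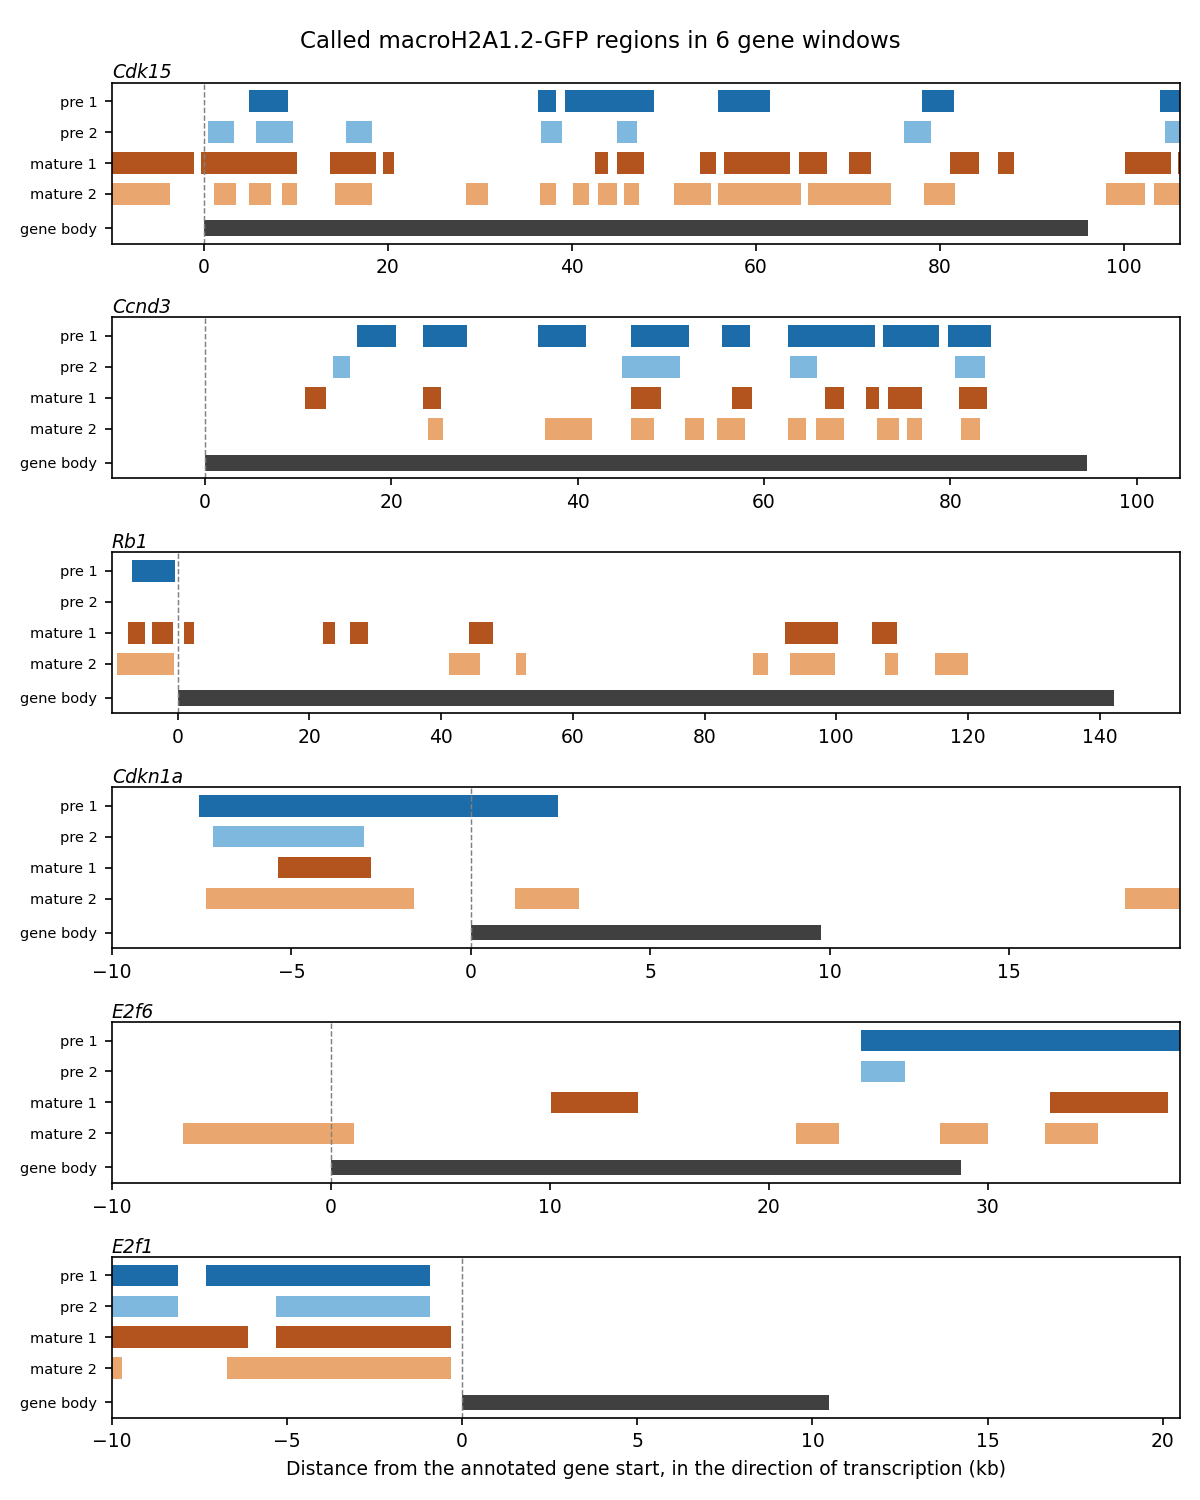
Regions of each sample (coloured bars, 1 row per sample) in the windows of Cdk15, Ccnd3, Rb1, Cdkn1a, E2f6 and E2f1, against the distance from the annotated gene start in kb, in the direction of transcription. The dark bar is the gene body and the dashed line its start. The 6 body regions of Rb1 in each mature sample have no counterpart in pre-adipocytes. The Ccnd3 regions stay between its outer and inner RefSeq starts, and the E2f1 regions stop short of the gene in all samples.

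E2f3, another activator, had the same upstream region in replicate 1 of pre-adipocytes and in both mature samples, with 93, 76 and 53 ChIP reads at fold enrichments of 2.09, 2.21 and 2.09. E2f2 had 2 regions and E2f4 1 region, each in a single sample and outside the gene. E2f7, an atypical repressor, had 1 region downstream in replicate 1 of pre-adipocytes and 1 in replicate 2 of mature adipocytes. E2f5 and E2f8 had none.

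At the level of the body, 10 of the 44 genes had a region in at least 1 sample, against 31.1% of all genes. At the level of the start it was 2, 0, 1 and 2 genes, against 6.14%, 2.3%, 5.78% and 5.43% of all genes. Over the 4 samples these were 4 genes (Cdk15, Cdk19, Cdkn1a and E2f6), against 11.7% of all genes. The mean was 0.5 genes higher in mature adipocytes (exact permutation test, two-sided, p = 1), a direction that turned without replicate 2 of pre-adipocytes, at -0.5 genes. Counted over the starts of all GENCODE basic transcripts, a choice made after the values had been seen, it was 1, 0, 1 and 2 genes.

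Promoters gave the same order. The RefSeq table held 39 promoters for 33 of the 44 genes, each from 250 bases before to 50 bases after a start, and regions overlapped 4 of them in any sample, against 18.4% of all RefSeq promoters. The 44 genes' promoters were rich in CpG, with a median of 25 CpGs in 300 bases against 7 over all promoters. Of their promoters, 24 held at least 20 CpGs, and 2 of these were overlapped in any sample, against 6.24% of all promoters with at least 20 CpGs. Among the other 15 promoters 2 were overlapped, against 22.9% of all promoters with fewer than 20 CpGs. Over all promoters, those overlapped in any sample had a median of 4 CpGs and the others 9. The part of CpG content in the number of covered starts was not tested.

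E2F factors bind their own family's promoters, and the E2F site letters TTTGGCGC, TTTCGCGC or TTTCCCGC, on either strand, were found in 7 of the 39 promoters, against 1.85% of all promoters. These belonged to Cdk1, Cdk2, Cdkn2a, E2f2, E2f3, E2f7 and Rbl1. Each of the E2F letter strings contains CG, and the 39 promoters had a median of 25 CpGs against 7 over all promoters. Whether their share with these letters is higher than that of promoters equally rich in CpG was not tested. The RefSeq start of E2f1 (154569426) lies inside the annotated gene, which starts at 154569892. The sequence upstream of that annotated start was therefore not searched. None of the 7 genes with these letters had a region over its start in any sample, where 11.7% of all genes had one. So few genes cannot show a difference from that share.

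Whether the density of ChIP reads inside shared regions changed with differentiation was tested across the genome. Regions of the 4 samples were merged where they overlapped, which gave 72 merged regions at the 44 genes. Of these, 15 were called in all 4 samples (20.8%, against 20.6% of all autosomal merged regions), 8 in both mature samples and neither pre-adipocyte sample (11.1% against 12.9%), 0 in both pre-adipocyte samples alone (1.62% of all) and 34 in 1 sample only (47.2% against 40.9%). Regions called in all 4 samples have a read count in each and could be tested. A merged region was counted whole when any part of it overlapped a window. The region of 88800 bp that begins downstream of Cdkn1a, for example, lies mostly outside the window.

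None of the 15 merged regions at these genes passed the test. With edgeR's quasi-likelihood test over 12857 merged regions, TMM normalisation and an offset for called length, 11 regions genome-wide had an adjusted p under 0.05 (Benjamini-Hochberg), or 0.0856%, and 0 of them were at the 44 genes. At an unadjusted p under 0.05 there were 4 of the 15, against 9.15% of all regions tested. With the Wald test of DESeq2, 0 of the 15 had an unadjusted p under 0.05, and DESeq2 gave an adjusted p for only 1 of them. The median log2 fold change of mature adipocytes over pre-adipocytes was -0.03 for the 15 regions and -0.00066 for all regions, with 7 above 0 and 8 below.

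The smallest p among regions with a positive log2 fold change belonged to Cdk15 (chr1:59296201-59305800), where the ChIP reads per called kb, scaled by library size, were 25.7, 38.1, 35.9 and 38.2. The log2 fold change was 0.34 (SE 0.145, edgeR adjusted p = 0.463). The next were 2 regions of Ccnd3, chr17:47549801-47558600 with 24.3, 30.6, 34.4 and 33.9 scaled reads per kb (log2 fold change 0.34, SE 0.153, edgeR adjusted p = 0.481) and chr17:47567601-47583800 with 24.6, 35.2, 33.5 and 33.2 (0.25, SE 0.119, edgeR adjusted p = 0.508). At all 3, replicate 1 of pre-adipocytes was the lowest sample. Replicate 2 of pre-adipocytes was above at least 1 mature sample, except at the first Ccnd3 region, where it was below both. In the Cdk15 region replicate 1 of pre-adipocytes also had the longest called length, 9600 bp against 2200 to 5400 bp. In the second Ccnd3 region it had 15400 bp against 3000 to 9000 bp. In the first, both pre-adipocyte samples had 6200 bp against 3200 and 4400 bp in mature adipocytes.

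In the other direction, a region reached out of the E2f7 window (chr10:110796401-110806200). It had 30.7, 35.5, 24.3 and 27.3 scaled reads per kb, with both mature samples below both pre-adipocyte samples (log2 fold change -0.37, SE 0.171, edgeR adjusted p = 0.501). Of the calls merged in it, only that of replicate 1 of pre-adipocytes overlapped the window, by 984 bp. The merged region of Cdkn1a (chr17:29083401-29094000), which takes in the upstream stretch and both starts, had 33.6, 43.0, 34.5 and 31.4 (-0.21, SE 0.134, edgeR adjusted p = 0.672), so that mature replicate 1 was above pre-adipocyte replicate 1. The region upstream of Cdk19 (chr10:40325801-40334200) had 27.7, 36.4, 26.7 and 25.7 (-0.23, SE 0.157, edgeR adjusted p = 0.688). The E2f1 region (chr2:154570201-154583400) had 27.4, 32.4, 29.5 and 30.9 and a log2 fold change of 0.02 (SE 0.111, edgeR adjusted p = 0.976). The scaled density was highest in the shallow replicate 2 of pre-adipocytes at the E2f7, Cdkn1a, Cdk19 and E2f1 regions, as it was in the median over regions in all gene windows, 36.4 against 27.8 to 31.2 in the other samples.

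**Figure D4:**
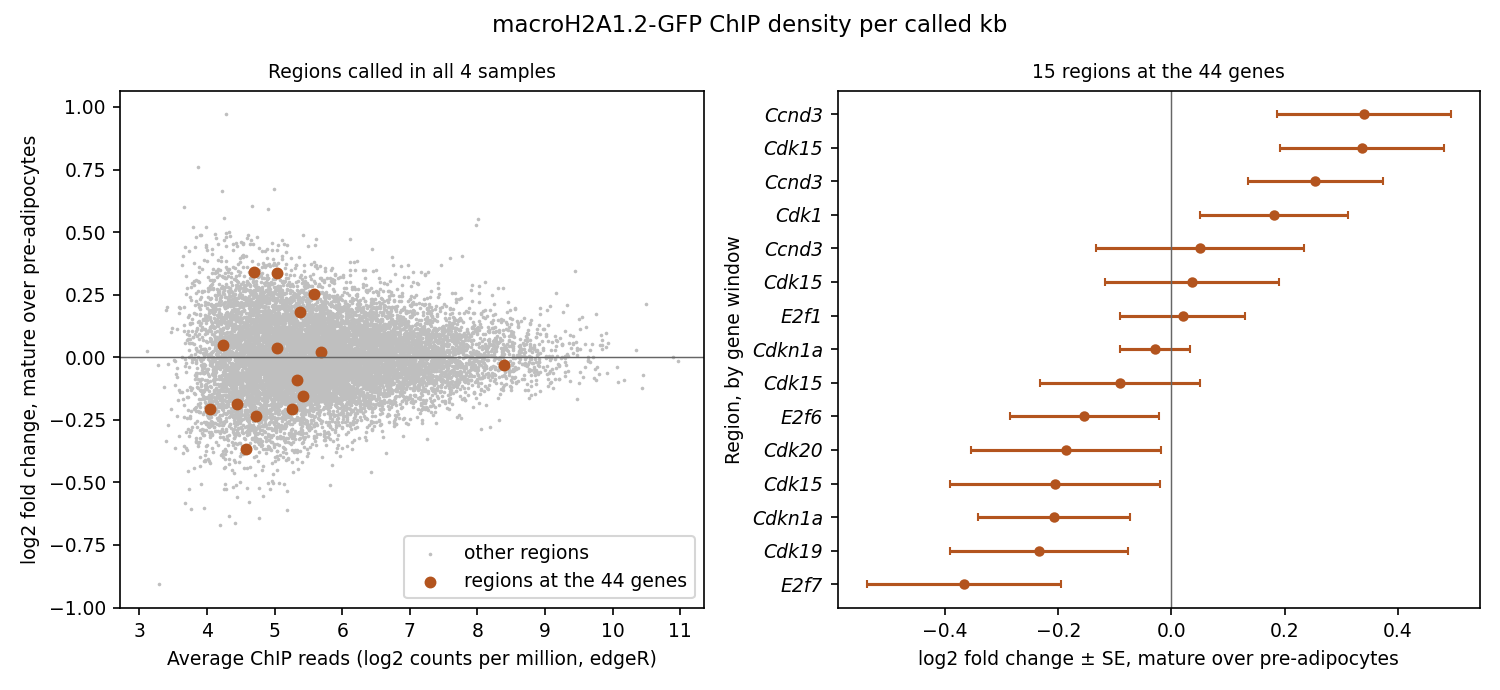
Left, log2 fold change of ChIP reads per called kb (mature over pre-adipocytes) against the average read count (log2, scaled to library size by edgeR) for the 12857 merged regions that every sample had, with the 15 at the 44 genes in colour. Right, the same log2 fold change with its standard error for the 15 regions, named by gene window. The 15 lie between -0.37 and 0.34, inside the cloud of the other regions.

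Other genes of the cell cycle were looked at by count. A list of 44 further genes held partners of E2F, regulators of CDKs, replication genes under E2F control and p53, Mdm2 and Myc. A region was in the window of 6, 8, 9 and 10 of them in the 4 samples, and 29 had none in any sample (65.9%, against 46.3% of all genes). Only Pkmyt1, which encodes an inhibitory kinase of Cdk1, and Myc had one in all 4 samples. Pkmyt1 had 8.40, 5.60, 2.73 and 6 kb of its 30.4 kb window covered, and Myc 4.77, 3.41, 3.8 and 7.77 kb of 25.0 kb. None of the 44 further genes had a region in both mature samples and neither pre-adipocyte sample, against 4.86% of all genes. Tfdp1, which encodes a partner of E2F factors, had one in both pre-adipocyte samples and neither mature sample, against 0.913% of all genes. Its covered length was 3.2 kb and 3 kb of 59.7 kb in replicates 1 and 2 of pre-adipocytes. The 14 replication genes had regions in 2, 1, 5 and 5 windows, against 35%, 30.3%, 41.4% and 41.6% of all genes, and 0 of them in all 4 samples, against 21.1%.

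The share of genes with a region was higher for long windows, here as over all genes. Of the 14 genes with windows over 50 kb, 10, 5, 9 and 10 had a region, against 45.4%, 42.2%, 53.7% and 53.9% of all genes of that size. Of the 30 genes with shorter windows it was 8, 6, 7 and 10, against 29.4%, 23.8%, 34.7% and 34.9%. The genes with no region had a median window of 33.6 kb and those with a region 46.2 kb.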

How the data were processed

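MacroH2A1.2-GFP ChIP-seq regions of 4 samples (2 per condition, grouped by sample title) were analysed. Single reads were aligned by the authors to mm10 with Bowtie 1.1.2, keeping unique hits with up to 2 mismatches, duplicates were removed with Picard, and regions were called per sample with SICER 1.1 against 1 no-antibody library. The deposited tables give raw counts of ChIP and control reads per region. They also give, as deposited, the p-value of the authors' caller with its FDR, and the fold ratio of ChIP to control reads scaled by library size. The depth behind a region is its ChIP count. Total library sizes were not used here beyond the scale in the fold ratio.

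Regions were made 1-based and overlapped by at least 1 bp with windows of 10 kb around GENCODE M21 genes. Samples were compared by exact permutation tests, and merged regions called in all 4 samples by edgeR 4.0.16 (limma 3.58.1, R 4.3.3) with TMM normalisation on reads per called length, with DESeq2 1.42.0 as an alternative. The overlap count and the edgeR fit were tested on simulated data, the fit without its length offset. Promoter sequences were RefSeq, GRCm38.p6. Genes named with values were those with regions in all samples, or in both replicates of 1 condition alone, those with a covered start and those the study measured otherwise, plus the 3 merged regions of smallest p in each direction. Rb1 and some other genes given values, such as E2f3 and Cdkn2c, fell outside this rule. Covered length was tested gene by gene for Cdk15, Ccnd3 and Rb1 only, chosen with their values known. The members and lists were chosen with earlier results of these data known. Alternatives were a stricter FDR or fold, other windows and overlaps, regions shared by replicates, other normalisations, a replicate block and leaving out each replicate.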

Additional observations from a re-analysis of the deposited data

How the results depend on the processing

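Of 119 values recomputed under alternatives, 99 kept their direction, 10 were counts of 0 that stayed at 0, 7 reversed and 3 came to 0. The difference between conditions (mature minus pre-adipocytes) in the number of genes with a region was 3.5, and it ranged from 0 to 7 when 1 replicate was left out, reaching 0 without replicate 2 of pre-adipocytes. It was 7.5 at a fold enrichment of at least 2 and 8 with regions shared by replicates, without shares of all genes to compare. For the share of window bases it ranged from 0.299 to 4.03 percentage points, and it was 0.487 at a fold enrichment of at least 2 and 0.924 at an FDR of at most 1e-05. For the median fold enrichment it ranged from -0.199 to 0.0907, above 0 without replicate 2 of pre-adipocytes. For covered starts it was -0.5 at an FDR of at most 1e-05, 0 at a fold enrichment of at least 2, and -0.5 to 1.5 when 1 replicate was left out. The Ccnd3 difference in covered length turned from -6.5 kb to 8.1 kb without replicate 1 of pre-adipocytes and was -21.1 kb without its replicate 2. Without the length offset, the log2 fold changes turned to -0.0109 at Cdk15 (start 59296201), -0.70 at Ccnd3 (start 47549801) and 0.61 at E2f7, a setting that lets regions called longer in a sample count as denser. The main setting divides by each sample's own called length, so it compares samples over different bases. At E2f7 the mature samples had more ChIP reads, 203 and 191 against 133 and 39. Their called lengths there were also longer, 6800 and 5800 bp against 3600 and 2000 bp. The cause of the reversals was not tested.

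The number of merged regions at the 44 genes past the threshold was 0 under every alternative, although DESeq2 gave no adjusted p for 14 of the 15 and the limit of 50 reads left 11 of them, while the number over all regions was 12 with DESeq2 size factors, 0 with library size relative to the control, 3 without the length offset, 6 with DESeq2, 27 with at least 50 reads in every sample, and 1 to 224 when 1 replicate was left out. With the replicate block 0 of the 15 and 27 of all regions passed (20 up, 7 down). Same-numbered replicates did not deviate together (correlation 0.00775), so the numbers were not taken as pairing.

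Regions not called in all samples have no count in the others and could not be tested for density. The shallow replicate 2 of pre-adipocytes limits what counts as missing there. With 2 samples per condition the exact tests cannot reach 0.05.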
